A study of Homo sapiens with 4 samples.

Results

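The nuclear-encoded subunits of oxidative phosphorylation were described in single-cell RNA sequencing (scRNA-seq) data of human lung cancer cells. The members are rows of the deposited table of corrected counts whose gene symbol begins as those of complex I (NDUFA, NDUFB, NDUFC, NDUFS or NDUFV with a number), complex III (UQCR), complex IV (COX4 to COX8) or ATP synthase (ATP5), and whose mean level over sub-populations 0 to 8 was at least 10 CPM. CPM are corrected unique molecular identifiers (UMIs, each marking 1 captured transcript) rescaled to 1000000 in every sub-population. Of 19973 genes in the table, 82 matched the symbols and 75 passed the level. These were 35 genes of complex I, 9 of complex III, 12 of complex IV and 19 of ATP synthase, also called complex V. NDUFA4 was counted in complex IV despite its symbol. The members were thus selected on their level over sub-populations 0 to 8, which is given here as a description. UQCRHL, the member nearest to the threshold, averaged 12.7 CPM, whereas NDUFA7 and COX6B2, the closest genes left out, averaged 5.85 and 2.13 CPM.

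PC9 is an established lung adenocarcinoma line with an activating EGFR deletion, and PC9-BrM4, labelled BM4, was derived from it by repeated selection for growth in the mouse brain. C2 and R2 were recovered from brain metastases that PC9-BrM4 cells formed in mice given vehicle or the EGFR inhibitor osimertinib, respectively. All lines were cultured for 3 days in the absence of drug, independent passages of a line were combined, and 1 library was made from each line. The authors clustered all cells jointly into 19 sub-populations, numbered 0 to 18, and deposited the mean of each, so that a value belongs to a sub-population and only by placement to a line. Sub-populations 0 and 4 were placed in C2 and 1 and 5 in R2 from the text of the study, whereas its plot puts 2 and 3 in PC9, with 6 and 7 falling in PC9-BrM4, while 8 was described there as alike in C2 and R2. In each line the column with more G2/M expression (3, 6, 4 and 5 for PC9, PC9-BrM4, C2 and R2) is called mitotic here.

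The tables covered 24441 cells with 12491 to 15635 corrected UMIs per cell, and a sub-population held 111 (18) to 3373 (0) of them. Relative uncorrected depth was 0.938 to 1.10 in sub-populations 0 to 8 and 0.405 to 1.14 over all 19, lowest in 13, 14 and 16. The summed level of 6 epithelial markers was 16980 to 24914 CPM in sub-populations 0 to 8, whereas leukocyte markers reached at most 2.07 CPM, fibroblast markers 2.60 CPM and endothelial markers 4.32 CPM. Erythroid markers reached 0.114 CPM, and 4 neural markers summed to 34.5 to 81.4 CPM. No member had fewer than 188 summed corrected UMIs in any of sub-populations 0 to 8, and the 95% Poisson interval of a mean had a median half-width of 2.39% and a largest of 14.6%. These intervals cover counting error only and treat the corrected UMIs, which come from a regression, as if they were observed counts. Since each line had 1 library, and since the values described here also defined the sub-populations, no difference could be set against a spread between cultures, and no test was made.

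Oxidative phosphorylation couples the oxidation of NADH and succinate to ATP synthesis in the inner mitochondrial membrane. Complex I passes electrons from NADH to ubiquinone, complex III from ubiquinol to cytochrome c, and complex IV from cytochrome c to oxygen, and each of these complexes pumps protons that then drive the rotary ATP synthase. Most subunits are encoded in the nucleus, translated in the cytosol and imported, whereas a small set of core subunits is encoded in mitochondrial DNA, so that the complexes need transcripts of both genomes. Complex I has core subunits that hold the cofactors and carry out catalysis and accessory subunits that stabilise the complex. ATP synthase has a catalytic F1 head, a stalk, a ring of c subunits and small subunits in the membrane.

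The members varied less over sub-populations 0 to 8 than all genes of at least 10 CPM, which were not matched to them by level. The median over the 75 members of the mean level in sub-populations 0 to 8 was 214.6 CPM, 62 members averaged at least 100 CPM, and ATP5F1E (1222 CPM), a small F1 subunit, and UQCRH (1031 CPM), the hinge subunit of complex III, were the members over 1000 CPM. The highest member of complex I was the accessory subunit NDUFS6 at 963.5 CPM and that of complex IV was COX7C at 596 CPM. Among sub-populations 0 to 8 the ratio of the highest to the lowest column had a median of 1.47 in the members, against 1.91 in all 7403 genes with a mean of at least 10 CPM. The ratio was under 1.5 in 41 members (54.7%), against 15.02% of all those genes. It exceeded 2 in 6 members, among them NDUFS1 (3.26), NDUFB2 (2.72), UQCRHL (2.65), ATP5F1A (2.55) and UQCR10 (2.41). UQCRHL is a retrocopy nearly identical to UQCRH, so that its counts are uncertain. The 3 genes of the c subunit, which encode the same mature protein behind different import signals, all passed the level, at 762 CPM for ATP5MC3, 361.5 for ATP5MC1 and 283 for ATP5MC2. Of the subunits with a second, tissue-restricted or stress-related gene, COX6B1 averaged 371.5 CPM against 2.13 for COX6B2, and NDUFA4 averaged 304 CPM against 0.584 for NDUFA4L2.

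Summed over the 75 members, transcripts of nuclear-encoded subunits made up 2.13% and 2.07% of corrected UMIs in PC9 (sub-populations 2 and 3), 1.98% and 1.91% in PC9-BrM4 (7 and 6), 1.90% and 1.82% in C2 (0 and 4) and 2.27% and 2.19% in R2 (1 and 5). Sub-population 8 had 1.94%. By this share R2 sub-populations were highest, those of PC9 came next, and those of PC9-BrM4 and C2 were lowest and close to each other. Without ribosomal and mitochondrially encoded UMIs the shares were 3.33% and 3.14% in PC9, 3.26% and 3.06% in PC9-BrM4 and 3.07% and 2.85% in C2. PC9 and PC9-BrM4 then overlapped, and R2 stayed highest (3.76% and 3.47%). Complex I summed to 7846 and 7712 CPM in the R2 sub-populations, above 6560 and 6322 in those of C2 and 6299 and 6150 in those of PC9-BrM4. ATP synthase was instead highest in PC9, at 6947 and 6761 CPM, against 6651 and 6373 in R2. It summed to 6495 and 6240 CPM in PC9-BrM4 and to 5850 and 5519 in C2. The sums by complex were not repeated without ribosomal and mitochondrially encoded UMIs, so this order is given for the full total alone. Because these are shares of UMIs, more of these transcripts and less of other RNA per cell cannot be told apart.

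**Figure D1:**
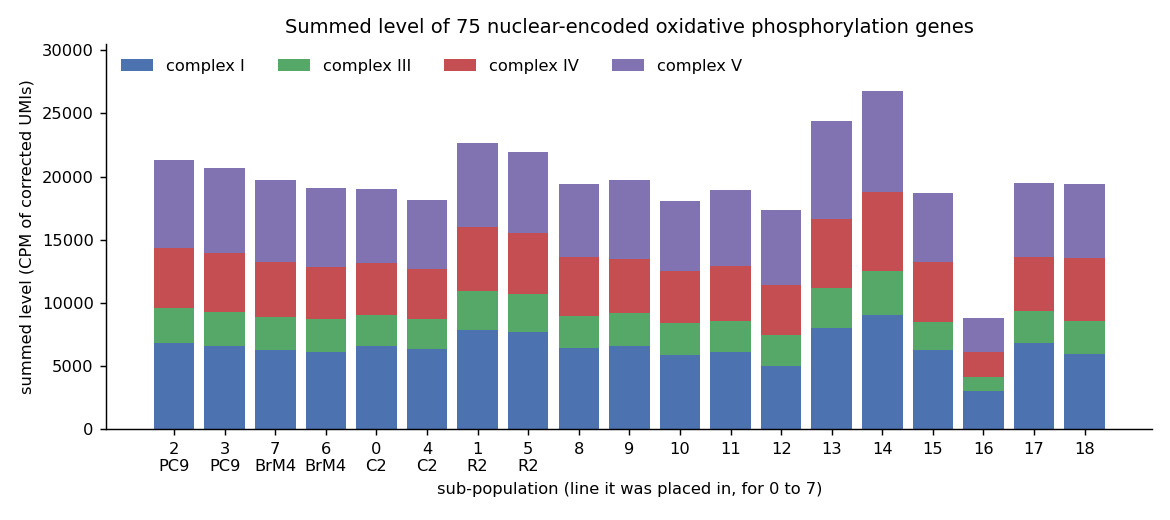
Summed level in CPM (y axis) of the 75 members in each of the 19 sub-populations (x axis), stacked by complex, with the line beside sub-populations 0 to 7. Sub-populations 13 and 14 had the highest sums (24396 and 26774 CPM) and 16 the lowest (8772 CPM).

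The members with the largest differences between lines were single subunits and not whole complexes. An effect is the difference between groups of columns in the mean of log2(CPM + 5), and a gene was counted as higher or lower where this difference reached 0.5 in size, which is 1.41-fold, and the columns of both groups did not overlap. The pseudocount of 5 CPM makes the effect of low genes smaller than their fold change. Beside each count of members stands the percentage of all genes with a mean of at least 10 CPM in the compared columns that passed the same rule.

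In PC9-BrM4 against PC9, the step of selection for brain metastasis, 3 members of complex I were lower (4.0% of the members, against 3.94% of all 7568 genes) and 0 were higher (against 0.714%). The median effect was −0.13 in the members and −0.11 in all genes, and 12 of the 75 members were above 0, against 25.5% of all genes. In the uncorrected table the medians were −0.20 in the members and 0.04 in all genes, with 11 members lower, the 3 included. With effects centred on the median of all genes, or with genes of like length, 1 member was higher and 2 were lower. Among those lower, the accessory subunit NDUFC1 stood at 168 and 163 CPM in sub-populations 2 and 3 (PC9) and at 102.5 and 95.2 in 7 and 6 (PC9-BrM4), an effect of −0.72, and the accessory subunit NDUFA3 at 134 and 130 against 87.6 and 85.8 (−0.58). For both genes the PC9 columns were close to each other and lay wholly above those of PC9-BrM4. ATP5ME, a small membrane subunit of ATP synthase, fell just short of the size used (−0.49). The largest effects in the other direction were those of ATP5F1A (0.41), the alpha subunit of the F1 head, and of the core subunit NDUFV2 (0.28). COX7A2L (0.21), a factor of supercomplex assembly, and NDUFB9 (0.21) followed. In the uncorrected table ATP5F1A had 0.295, NDUFV2 0.43 and COX7A2L 0.02. NDUFB9 had −0.51 there and was among the 11 members lower.

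C2 and R2 were each compared with PC9-BrM4, the line from which both were derived, so that both comparisons share the PC9-BrM4 columns and are given side by side. In C2, 3 members were higher (4.0%, against 8.06% of 7257 genes) and 4 were lower (5.33%, against 7.48%). In R2, 11 members were higher (14.7%, against 10.7% of 7214 genes) and 2 were lower (2.67%, against 19.3%). In C2 neither share was above that of all genes. Once the median of genes of like transcript length was subtracted, 7 members were higher and 4 lower in R2, and of the 11 higher before only NDUFB2, UQCR10 and UQCR11 were among the 7, the other 4 being NDUFA5, UQCRB, NDUFA9 and ATP5S. In C2, 7 were lower without sub-population 0. The median effect in C2 was −0.08 in the members and −0.05 in all genes, with 30 of 75 members above 0 against 43.7% of all genes. In R2 it was 0.17 in the members and −0.09 in all genes, with 55 of 75 members above 0 against 42.9% of all genes. The R2 effects of the complexes were unequal, with medians of 0.22 for complexes I and IV, −0.01 for complex III and 0.00 for ATP synthase.

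NDUFB2, an accessory subunit in the membrane arm of complex I, had the largest effect of any member. It stood at 166 and 153 CPM in PC9-BrM4 (7 and 6) and at 184 and 183 in PC9 (2 and 3). It stood at 340 and 349 CPM in C2 (0 and 4), 411 and 418 in R2 (1 and 5) and 392 in sub-population 8. Every C2 and R2 column was thus well above every PC9 and PC9-BrM4 column, with effects of 1.09 in C2 and 1.35 in R2. UQCR10, a small subunit of complex III, had the same order, with 222 and 206 CPM in PC9-BrM4, 264 and 239 in PC9, 391 and 370 in C2 and 482 and 496 in R2. Its effects were 0.82 in C2 and 1.17 in R2. UQCR11, another small subunit of complex III, stood at 89.5 and 97.8 CPM in PC9-BrM4, 115 and 118 in PC9, 135 and 140 in C2 and 160 and 170 in R2, with effects of 0.53 and 0.78. These differences were smaller than for NDUFB2 and UQCR10, and the lines again did not overlap. ATP5MF, a small membrane subunit of ATP synthase, followed with 0.39 in C2 and 0.72 in R2. UQCR10, NDUFB2, ATP5MF and NDUFS6 belong to the MetRes signature, which the study chose on these sub-populations, so that its members are no independent evidence of this direction.

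NDUFS1, the largest core subunit of complex I, differed in the opposite direction. It stood at 56.1 and 60.5 CPM in PC9-BrM4 (7 and 6), 59.7 and 63.8 in PC9 (2 and 3), 27.4 and 28.4 in C2 (0 and 4), 19.6 and 24.3 in R2 (1 and 5) and 22.2 in sub-population 8. The PC9 and PC9-BrM4 columns overlapped, whereas those of C2 and R2 were all under 30 CPM, with effects of −0.94 and −1.24. ATP5F1A stood at 293 and 282 CPM in PC9-BrM4, 221 and 209 in PC9, 169 and 150 in C2 and 137 and 126 in R2. Its effects were −0.83 in C2 and −1.10 in R2, and among sub-populations 0 to 8 it was highest in PC9-BrM4 and lowest, at 115 CPM, in 8. The accessory subunit NDUFA2 and the complex III subunit UQCRQ were lower in C2 (−0.57 and −0.53), with R2 effects of −0.23 and −0.31. NDUFA10 and COX7A2L followed NDUFS1 and ATP5F1A at the low end in R2, both with −0.35. The members higher in R2 were, besides NDUFB2, UQCR10, UQCR11 and ATP5MF, the accessory complex I subunits NDUFA6 (0.66), NDUFB8 (0.64), NDUFA11 (0.62), NDUFA13 (0.52) and NDUFS5 (0.52), the complex IV subunit COX7A2 (0.61) and the ATP synthase subunit ATP5MG (0.57). With genes of like transcript length subtracted, these 7 and ATP5MF had effects of 0.23 to 0.43 and passed the size no more. Of the 11 members, 5 were counted as higher in the uncorrected table as well, namely NDUFB2, UQCR10, UQCR11, NDUFA11 and ATP5MG, whereas COX7A2 had −0.02 there. Other genes annotated on the same strand overlap 90% of NDUFV2, 83.9% of NDUFA13, 72% of NDUFB8, 68.2% of NDUFA11 and 63.8% of ATP5PO, so that the counts of these members are less certain. ATP5IF1, which inhibits the hydrolytic activity of ATP synthase, had effects of 0.24 in C2 and 0.50 in R2 and fell just short of the size used.

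**Figure D2:**
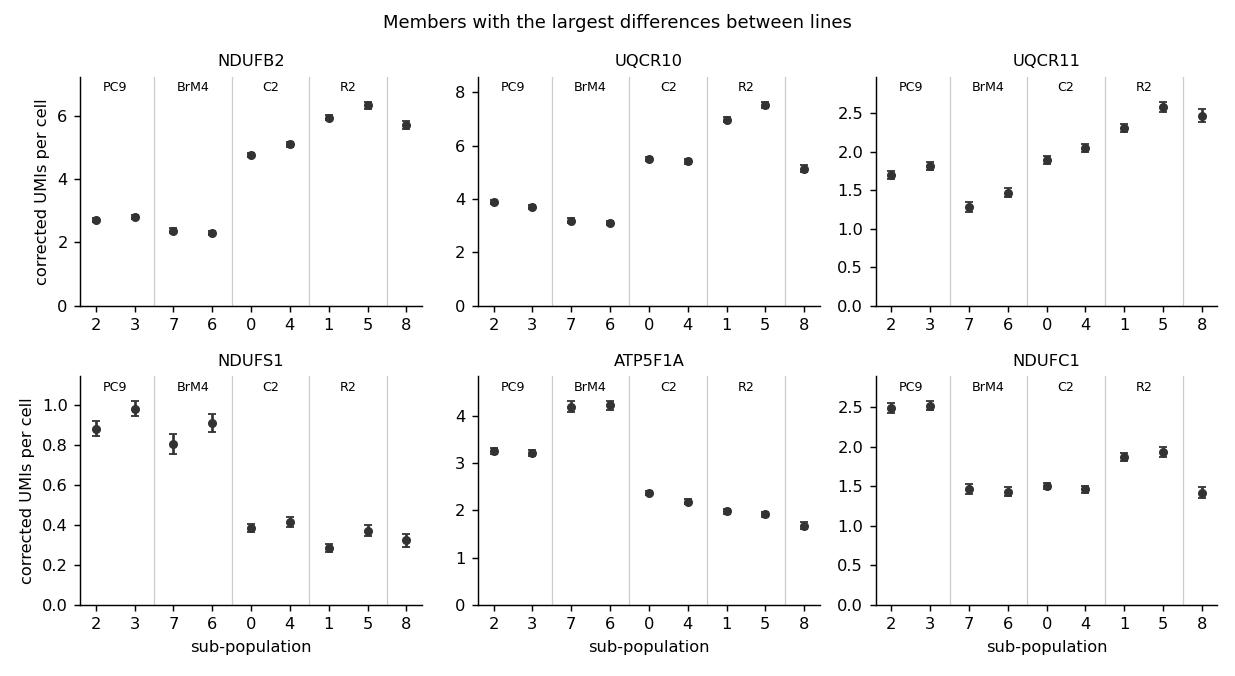
Mean corrected UMIs per cell (y axis, from 0) of 6 members in sub-populations 0 to 8 (x axis, ordered by line), with 95% Poisson intervals that cover counting error only. NDUFB2, UQCR10 and UQCR11 are higher in the C2 and R2 columns than in those of PC9 and PC9-BrM4, NDUFS1 and ATP5F1A are lower there, and NDUFC1 is highest in the PC9 columns.

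The promoters of the members with the largest positive and negative differences between lines are shown for their sequence context, as the stretch from 250 bases before to 50 bases after the RefSeq start on GRCh38.p14. They are NDUFB2 at chr7:140696458-140696757 on the plus strand, UQCR10 at chr22:29767119-29767418 on the plus strand, NDUFS1 at chr2:206159395-206159694 on the minus strand and ATP5F1A at chr18:46104178-46104477 on the minus strand, each printed 5′ to 3′ along the gene. Capitals mark the 1 motif match that these windows hold, an ETS motif read on the opposite strand.
NDUFB2: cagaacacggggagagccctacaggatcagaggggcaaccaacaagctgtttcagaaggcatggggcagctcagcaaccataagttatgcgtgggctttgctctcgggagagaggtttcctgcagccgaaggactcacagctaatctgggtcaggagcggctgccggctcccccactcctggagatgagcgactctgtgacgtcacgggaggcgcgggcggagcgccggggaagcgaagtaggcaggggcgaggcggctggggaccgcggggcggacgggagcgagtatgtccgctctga
UQCR10: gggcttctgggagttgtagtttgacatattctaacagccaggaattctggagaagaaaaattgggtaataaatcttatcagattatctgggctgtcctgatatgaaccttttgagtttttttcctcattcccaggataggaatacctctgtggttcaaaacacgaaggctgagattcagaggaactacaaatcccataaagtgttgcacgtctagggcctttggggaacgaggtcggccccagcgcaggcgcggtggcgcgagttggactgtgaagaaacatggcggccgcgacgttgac
NDUFS1: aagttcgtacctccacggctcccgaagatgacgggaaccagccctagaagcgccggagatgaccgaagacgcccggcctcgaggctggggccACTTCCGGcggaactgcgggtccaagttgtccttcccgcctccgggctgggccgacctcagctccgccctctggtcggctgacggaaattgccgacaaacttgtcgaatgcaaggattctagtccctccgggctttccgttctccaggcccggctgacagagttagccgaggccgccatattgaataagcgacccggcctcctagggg
ATP5F1A: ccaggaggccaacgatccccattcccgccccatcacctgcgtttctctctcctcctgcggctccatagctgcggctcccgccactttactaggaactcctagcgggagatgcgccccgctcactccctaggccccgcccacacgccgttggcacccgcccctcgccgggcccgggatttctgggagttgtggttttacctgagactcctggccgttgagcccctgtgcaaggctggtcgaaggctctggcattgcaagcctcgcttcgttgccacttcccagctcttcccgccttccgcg
Motifs of 3 factors known from nuclear genes of respiration were searched as exact letters on both strands, in the 61 members with an entry in the RefSeq promoter table. The NRF1 motif GCGCATGCG was in 9 member promoters (14.8%), against 4.43% of 5978 promoters of genes with a mean of at least 10 CPM and 1.92% of 35116 promoters in all. The ETS motif CCGGAAGT was in 9 (14.8%), against 10.9% and 4.14%, and the YY1 motif AAGATGGCG in 6 (9.84%), against 5.00% and 1.748%. At least 1 of the 3 was in 22 member promoters (36.1%), against 18.97% and 7.33%. The promoters of NDUFB2, UQCR10 and ATP5F1A held no exact match, which says only that these letters are not in these windows.

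NDUFB2, UQCR10, NDUFS1 and ATP5F1A, with the largest differences of C2 and R2 from PC9-BrM4, lay among neighbours that differed in the same direction, which was not so for members in general. For each member the median effect of the measured genes nearest to it on the chromosome, 10 on each side and without other members, was taken, a step added after the values had been seen. Around NDUFB2 (chromosome 7, from 135361795 to 144195879) 19 of 20 flanking genes were above 0 in C2 against PC9-BrM4, with a median of 0.67, and in R2 the median was 0.58. Around UQCR10 on chromosome 22 the medians were 0.33 in C2 and 0.35 in R2, with 18 and 16 of 20 genes above 0. All 20 genes around ATP5F1A (chromosome 18, from 35332227 to 49813953) were below 0 in C2 (median −0.53) and 19 of 20 in R2 (−0.60), whereas all 20 were above 0 in PC9-BrM4 against PC9 (0.28), where ATP5F1A itself had a positive effect. Around NDUFS1 on chromosome 2, 19 of 20 genes were below 0 in both C2 (−0.62) and R2 (−0.65). Around NDUFA2 and UQCRQ on chromosome 5 the C2 medians were −0.55 and −0.38.

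The members that were lower in PC9-BrM4 than in PC9 were treated in the same way. The flanking median was −0.48 for NDUFC1 on chromosome 4, where 19 of 20 genes were below 0, but only −0.13 for NDUFA3, close to the median of all genes. The flanking medians of all 75 members centred on −0.11 there, so that a shared sign says little. Counting sign alone, the flanking median had the sign of the member for 6 of 7 members in C2 and 9 of 13 in R2, where the flanking medians centred on −0.05 and −0.08. The exceptions were UQCR11 in C2 (flanking median −0.06) and NDUFS5, COX7A2, ATP5MG and NDUFB8 in R2 (−0.15, −0.43, −0.23 and −0.23). Over all 75 members, which are not independent, Spearman's rho between the effect of a member and its flanking median was 0.20, 0.28 and 0.32 in PC9-BrM4 against PC9, C2 and R2, which is weak over the members as a whole. In R2 against C2 rho was 0.02, with 1 of 2 members sharing the sign, and in sub-populations 10 and 12 against 0 to 7 the sign was shared by 10 of 21 and 10 of 27 members past 0.5. The copy number of these regions was not analysed here, and its part in these differences was not tested.

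**Figure D3:**
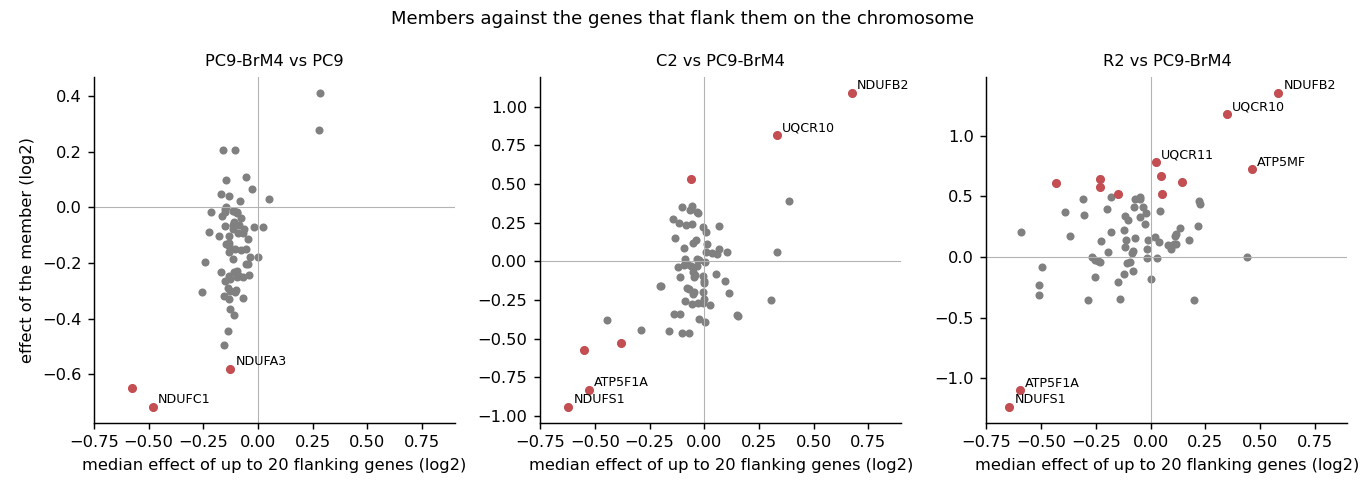
Effect of each member (y axis, log2) against the median effect of up to 20 flanking genes (x axis, log2) in 3 comparisons, with members past 0.5 and without overlap of columns in red. NDUFB2 and UQCR10 lie at the upper right and NDUFS1 and ATP5F1A at the lower left in C2 and R2, and NDUFC1 at the lower left in PC9-BrM4 against PC9.

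In contrast to these single genes, R2 against C2 showed a small difference of the same sign in nearly all members. Of the 75 members, 71 were above 0, against 47.9% of 7133 genes, and the median effect was 0.27, against −0.02. The medians of the complexes were close to each other, at 0.29 for complex I, 0.25 for complex III, 0.32 for complex IV and 0.21 for ATP synthase. Few members reached the size of 0.5, with 2 higher (2.67%, against 0.925%) and 0 lower (against 9.87%). NDUFA9, an accessory subunit near the ubiquinone site, stood at 122 and 121 CPM in R2 (1 and 5) and 84.1 and 76.7 in C2 (0 and 4), an effect of 0.57. UQCRB, which binds ubiquinone in complex III, stood at 590 and 556 CPM in R2 and 417 and 390 in C2 (0.50). In the uncorrected table neither gene was counted as higher, with 0.28 for NDUFA9 and −0.03 for UQCRB, and the 4 that were so counted there were ATP5PB, COX5A, UQCR11 and NDUFA11. NDUFA13 (0.44) and the stalk subunit ATP5PO (0.44) followed. The members below 0 were NDUFS1 (−0.29), ATP5F1A (−0.27), ATP5MPL (−0.09) and NDUFB1 (−0.05).

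The subunits that mitochondrial DNA encodes had the opposite sign. All 13 of them were below 0 in R2 against C2, with a median of −0.31, and MT-ND6 had −1.17. Nuclear genes of other mitochondrial and cytosolic machines also had medians above 0, at 0.24 for 75 measured mitochondrial ribosomal proteins, 0.21 for 45 assembly factors of the respiratory complexes and 0.32 for 83 cytosolic ribosomal proteins, against 0.03 for 18 enzymes of the tricarboxylic acid (TCA) cycle and 0.09 for 6 genes of complex II and cytochromes c and c1. The effect also moved with transcript length. The canonical transcripts of the members had a median of 756 bases, against 3144 for all measured genes, and across genes in R2 against C2 Spearman's rho between length and effect was −0.64. The 1254 measured genes with transcripts of at most 1500 bases had a median effect of 0.25. After the median of genes of like length was subtracted, the median of the members was 0.05, with 53 of 75 above 0, and those of the complexes lay between −0.01 and 0.09. In R2 against PC9-BrM4, with a rho of −0.46, the same step moved the median of the members from 0.17 to −0.02. In the table of uncorrected counts the members had a median of 0.04 in R2 against C2, with 48 above 0, where all genes had −0.23. The part of transcript length in these differences was not tested.

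**Figure D4:**
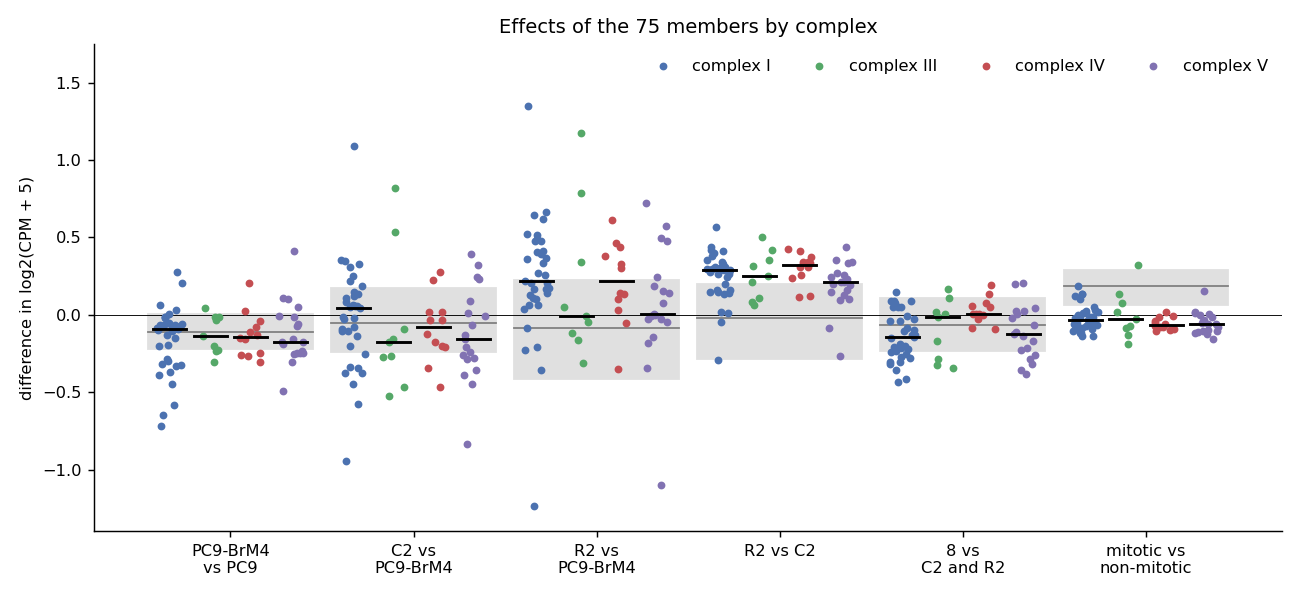
Effect of each member (points, difference in log2(CPM + 5)) by complex in 6 comparisons (x axis), with the median of each complex as a black line and the middle 50% of all measured genes, with their median, in grey. In R2 against C2 nearly all points lie above 0, whereas in mitotic against non-mitotic sub-populations they lie below the grey median.

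Within lines, mitotic and non-mitotic sub-populations differed little in these genes. The mean of the 4 within-line effects ranged from −0.19 for UQCRFS1, the Rieske iron-sulphur protein of complex III, to 0.32 for UQCRHL, and 0 members reached 0.5 in either direction, against 3.8% of 7397 genes higher and 0.0406% lower. The median was −0.04 in the members and 0.19 in all genes, with 20 of 75 members above 0 against 82.6% of all genes. The members therefore stayed level on the CPM scale while most genes were slightly higher in the mitotic columns, and without rescaling their median was 0.02. This contrast was not seen in the uncorrected table, with medians of 0.03 in the members and 0.02 in all genes, and was smaller among genes of at least 50 CPM (−0.05 and 0.02). After UQCRFS1, the lowest effects were those of the F1 gamma subunit ATP5F1C (−0.15) and of NDUFA10 and NDUFS4 (both −0.14). The highest after UQCRHL were those of NDUFA13 (0.19), ATP5S (0.16) and NDUFV3 (0.14).

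Sub-population 8 was compared with the mean of the 4 columns of C2 and R2, and differences were small, with medians that varied by role. No member was counted as higher (against 3.1% of 7159 genes) or lower (against 6.01%), and the median was −0.09 in the members and −0.06 in all genes. The 7 core subunits of complex I were all below 0, with a median of −0.22, and the 5 F1 subunits of ATP synthase had a median of −0.32 with 1 above 0, whereas 11 subunits of complex IV had a median of 0.01. NDUFS3 (−0.44), NDUFA9 (−0.42) and the catalytic beta subunit ATP5F1B (−0.39) were lowest, and ATP5MD, ATP5F1E and COX6C (each between 0.19 and 0.21) and UQCR11 (0.17) were highest. TCA cycle enzymes (−0.27) and mitochondrial ribosomal proteins (−0.35) had lower medians than the members, and the mitochondrially encoded subunits a higher one (0.12).

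Of the smaller sub-populations, 10 and 12 had the most members at lower levels apart from 16. By role, medians were lowest for F1 subunits and complex I core subunits in 10 and for complex I core subunits in 12. Members of all 4 complexes were among those lower in both. Both were set against the same mean of 0 to 7 and are given side by side, with 1 column each. In sub-population 10 (770 cells), 18 members were at least 0.5 below that mean (24.0%, against 13.5% of 7488 genes) and 3 at least 0.5 above (4.0%, against 13.8%). In sub-population 12 (389 cells), 26 were below (34.7%, against 14% of 7519 genes) and 1 above (1.33%, against 10.4%). The member medians were −0.24 and −0.28, where those of all genes were 0.04 and 0.06. In the uncorrected table members and all genes did not stand apart, with medians of −0.095 and −0.091 in 10 and of −0.063 and −0.041 in 12.

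In sub-population 10 the 7 core subunits of complex I had a median effect of −0.77 and the 5 F1 subunits one of −1.09, against −0.17 for 11 complex IV subunits and −0.03 for 5 small membrane subunits of ATP synthase. The F1 subunits ATP5F1A (−1.33), ATP5F1B (−1.26) and ATP5F1C (−1.09) were lower, but not ATP5F1E, at 1461 CPM against a mean of 1212 (0.27). UQCRC2 (−1.24), a core protein of complex III, and the complex I subunits NDUFA10 (−1.25), NDUFA9 (−1.21) and NDUFS1 (−1.02) were also among the 8 members past −1. NDUFB2 (0.72), UQCR11 (0.69) and UQCR10 (0.53) were the 3 above 0.5. The table of uncorrected counts gave −1.28 for ATP5F1A, −1.14 for ATP5F1B and −0.92 for UQCRC2, although the median of the core subunits was smaller there (−0.29).

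In sub-population 12 the core subunits of complex I had a median of −0.59 and its 28 accessory subunits one of −0.41, with 13 of them at least 0.5 below, and 8 complex III subunits had −0.43, whereas the F1 subunits had −0.26 and the complex IV subunits −0.18. Among the lowest were NDUFA9 (−1.30), UQCRC2 (−1.16), NDUFS3 (−1.09), ATP5F1C (−1.05) and NDUFV1 (−1.02). NDUFS1, in contrast, stood at 38.4 CPM against a mean of 42.5 (−0.02). UQCRQ (0.54) and ATP5F1E (0.49, at 1693 CPM) were highest. The uncorrected table gave smaller values here, with −0.38 for NDUFA9 and −0.22 for NDUFS3, and ATP5F1B turned from −0.91 to 0.37. The size in sub-population 12 thus differed between the corrected and the uncorrected table, and the cause was not tested. Genes flanking UQCRC2 had medians of 0.18 in 10 and 0.31 in 12, so that its neighbours were not lower in like measure. Other lists were lower too, with medians in 10 and 12 of −0.40 and −0.56 for the TCA cycle and of −1.0 and −1.28 for 37 proteasome subunits, while mitochondrially encoded subunits were at 0.22 and 0.32.

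**Figure D5:**
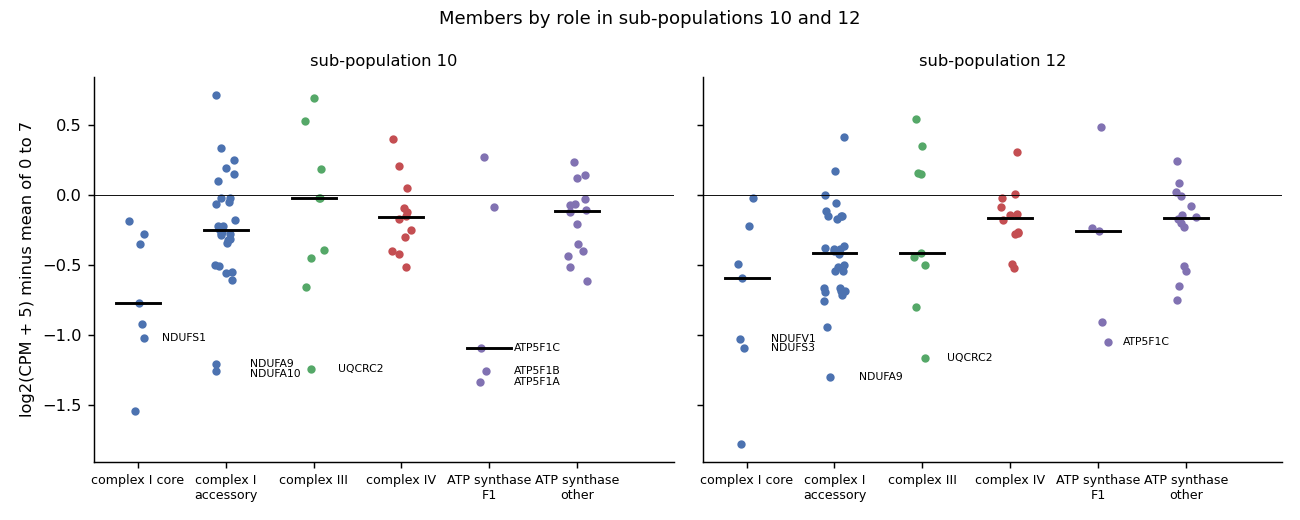
Difference in log2(CPM + 5) from the mean of sub-populations 0 to 7 (y axis) for each member by role (x axis) in sub-populations 10 and 12, with the median of each role as a black line and most members past −1 named. Core subunits of complex I lie low in both, and F1 subunits lie low mainly in 10.

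Sub-populations 13, 14 and 16 departed from the mean of 0 to 7 in most members. Sub-population 16 (176 cells) held 70.9% mitochondrially encoded UMIs, and all 75 members were below the mean of 0 to 7, with a median of −1.12 against −1.38 for all genes and 2.09 for the mitochondrially encoded subunits. Its members made up 0.877% of all UMIs, but 3.79% of those left without ribosomal protein and mitochondrially encoded genes, against 2.85% to 3.76% in sub-populations 0 to 8. The uncorrected table gave a member median of −0.79 in 16, against −1.03 for all genes. There the 28 accessory subunits of complex I had −1.21, whereas 11 complex IV subunits had 0.39 and 5 F1 subunits 0.43. Sub-populations 13 and 14, whose relative depth was 0.405 and 0.464, had 71 and 69 members above 0, with medians of 0.25 and 0.37 where all genes had −0.51 and −0.52. In 14, 17 members were at least 0.5 above (22.7%, against 6.31% of 7178 genes) and 2 at least 0.5 below (2.67%, against 51%). Their mitochondrially encoded share was low, at 9.0% and 6.72%. In the uncorrected table the member medians of both were below 0 (−0.45 and −0.13), and the part of depth was not tested. In 14, NDUFS1 (12 CPM, −1.37) was lowest and UQCR10 (0.75) highest, and in 13 NDUFA13 (−0.90) was lowest and NDUFB1 (0.60) highest.

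Sub-population 11 (465 cells) had a median of −0.07 and 1 member past −1. ATP5MPL, a small membrane subunit of ATP synthase, stood at 99.4 CPM there against 246 to 300 CPM in sub-populations 0 to 8 (−1.38), and NDUFB1 at 32.3 CPM against 48.2 to 73.7 (−0.85). Both genes lie on chromosome 14, and their flanking medians were −0.59 and −0.27, with 17 and 18 of 20 genes below 0. NDUFS1 (0.59) was highest in 11. In sub-populations 9, 15, 17 and 18 the member medians lay between −0.09 and −0.03. NDUFB2 was lowest in 9 (−0.45), ATP5F1C in 15 (−0.87), ATP5F1A in 17 (−0.40) and UQCR10 in 18 (−0.76), and UQCR10 was highest in 9 (0.31), ATP5PB and NDUFA6 in 15 (both 0.55 or 0.54), NDUFB2 in 17 (0.56) and ATP5MC2 in 18 (0.66).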

How the data were processed

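According to the methods of the study, libraries were made with 10x 3 prime chemistry, reads were aligned to hg38 and counted with Cell Ranger 2.0.0, and cells with at least 200 transcripts and genes found in at least 3 cells were kept in Seurat 3.0. The labels give the line of each library, and the columns of the deposited tables belong to no single library. The authors deposited 2 tables of 1 signal value per gene and sub-population. In the first, the signal values deposited by the authors are mean UMI counts per cell after sctransform, a regression to a common depth with the mitochondrial percentage in the model. In the second, they are the mean of the exponential of the uncorrected count minus 1, which weighs cells with high counts heavily and was turned into a mean count under a Poisson assumption. In it 140 values of 20 genes had overflowed, none of a member. Multiplied by a whole number of cells, each column of the first table gave whole numbers of UMIs within 0.001, which gave the cells per sub-population.

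Columns were rescaled to 1000000, and effects, filter (10 CPM), pseudocount (5 CPM) and size (0.5) are as given above. The 3 prime chemistry yields 1 tag per transcript, so that levels were not divided by length. Doublets were not assessed here. On simulated data for R2 against C2, 0 of 50 genes changed 1.2-fold were called, 24 of 50 at 1.5-fold, 50 of 50 at 2-fold and 0 of 6933 unchanged genes. The simulation gave both columns of a line equal means, with Poisson noise alone. It held no difference by cell cycle, transcript length or culture, so it gives no rate of false calls for the real columns. Gene positions and the lengths of canonical transcripts were read from GENCODE 44, on GRCh38, older symbols being matched (ATP5MPL to ATP5MJ, ATP5MD to ATP5MK, ATP5S to DMAC2L), and length was adjusted in 20 bins. The members, lists and comparisons were chosen with earlier results of these data known. Members were named if among the 4 largest or 4 smallest effects of a comparison with the sign kept without each column, if past 1, if highest in their complex, if isoforms of 1 subunit, if in MetRes, if at the threshold, or, in sub-populations 9 to 18, if among the 2 largest or smallest. Other named members passed 0.5 or were chosen after their values were seen. One member is not reported here by itself, though it is counted in the sums, counts and medians. Alternatives were the second table, a pseudocount of 1 or 20, a filter of 50 CPM or none, values not rescaled, other totals, centring, length bins, a size of 1 and leaving out columns. Python 3.11.15, pandas 2.3.3 and scipy 1.17.1 were used.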

Additional observations from a re-analysis of the deposited data

Results flagged for a closer look

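The table of uncorrected counts held 2 genes of the symbol pattern that the corrected table did not hold, the readthrough gene NDUFC2-KCTD14 and COX8C, a testis-restricted isoform of a complex IV subunit. Each had an estimated 4 UMIs over all cells, in 4 sub-populations each. No more than 1 of these UMIs fell in any 1 sub-population.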

How the results depend on the processing

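Of 252 settings of the main results, 202 left the value or count alike and 50 moved it. In PC9-BrM4 against PC9 the member median was −0.20 in the uncorrected table (2 members higher, 11 lower), −0.17 without rescaling, −0.052 with a total free of ribosomal and mitochondrially encoded genes, −0.02 after centring on all genes and −0.035 after length bins, with 1 higher in each of the last 2, and 0 were lower at a size of 1. In C2 against PC9-BrM4 it was −0.02 in the uncorrected table (10 lower) and −0.029 after centring, 2 were lower with a pseudocount of 20, and 1 was higher and 0 lower at a size of 1. In R2 against PC9-BrM4 it was 0.022 in the uncorrected table (6 lower), 0.26 after centring (19 higher) and −0.018 after length bins (7 higher, 4 lower), 1 was lower with a filter of 50 CPM, and 2 were higher at a size of 1. In R2 against C2 it was 0.035 in the uncorrected table (4 higher, 1 lower), 0.32 without rescaling and 0.047 after length bins, and 0 were higher with a pseudocount of 20 or a size of 1. For sub-population 8 the uncorrected table had 10 higher and 10 lower. Between mitotic and non-mitotic columns the median was 0.029 in the uncorrected table (1 lower), −0.051 with a filter of 50 CPM, 0.024 without rescaling, −0.087 with the other total, −0.225 after centring and −0.082 after length bins. Without the 20 members past 0.5 between lines, an alternative chosen after seeing the data, the medians were −0.088 for PC9-BrM4 against PC9, 0.13 for R2 against PC9-BrM4 and −0.058 for mitotic columns over the other 55. Leaving out 1 column at a time, the C2 median ranged from −0.10 to −0.015 (without 4) with 5 to 7 lower, the R2 median against PC9-BrM4 from 0.15 to 0.20, and the count lower in sub-population 8 from 0 to 2 (without 4). For the smaller sub-populations 16 values moved, and the uncorrected table turned the sign in 13 (−0.45), 14 (−0.13) and 17 (0.06), as the other total (0.29) and centring (0.26) did in 16. The cause of these shifts was not tested. No paired analysis was possible because each line had 1 library. Low members such as UQCRHL are limited by counting, with half-widths up to 14.6%.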
